A study of Chlorocebus aethiops with 24 samples.

Results

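Cell adhesion molecules were read from hippocampal messenger RNA of 22 vervet monkeys, and they comprised 60 of the 11512 probe sets in the expression table. A probe set was taken as a member when the platform annotation gave it 1 gene symbol and that symbol began with the name of a cadherin, protocadherin, integrin, contactin, contactin-associated protein, neurexin, neuroligin, LRRTM protein, CADM protein, neural cell adhesion molecule, L1 family molecule or claudin. The 60 probe sets carried 57 symbols, because CNTNAP2, ITGA7 and NCAM1 each had more than 1 probe set. They fell into 22 of the cadherin superfamily (9 cadherins and 13 protocadherins), 14 named as integrins, 9 of the axonal and paranodal class (contactins, contactin-associated proteins, NCAM1 and L1CAM), 6 synaptic organizers (CADM2, CADM3, LRRTM1, LRRTM4, NLGN1 and NLGN4X) and 9 claudins. The prefix also took 3 symbols in the integrin class that are not integrin subunits (ITGB1BP1, ITGB3BP and ITGBL1) and 1 claudin-like protein (CLDND1). A further 2 probe sets named several protocadherins at once and were not taken. No neurexin probe set matched.

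Adhesion molecules hold cells to each other and to the matrix. Classical cadherins and protocadherins bind their like on a facing membrane through extracellular repeats, and classical cadherins are tied to the actin skeleton by catenins, while integrins are pairs of an alpha and a beta subunit that bind matrix proteins such as laminin and osteopontin. Contactins and contactin-associated proteins sit on axons and beside the nodes of Ranvier, neuroligins and LRRTM proteins face neurexins across the synapse, and claudins seal tight junctions, including those of the blood-brain barrier.

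The monkeys were male Chlorocebus in 4 groups. FASD animals, whose mothers drank an ethanol solution late in pregnancy, were sacrificed at 2 years (5 animals) and at 5 months (5 animals). Control animals, whose mothers drank sucrose, were sacrificed at 2 years (6 animals) and at 5 months (6 animals). According to the study's methods the same female could be given ethanol in one breeding cycle and sucrose in another, and the labels do not tie animals to mothers, so animals of different groups may share a mother. Each animal was 1 array of rhesus macaque probes, so vervet transcripts that differ from the macaque sequence may bind less well, and levels are not compared between probe sets. All animals share the species, the sex, the tissue and this array.

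Values are log2 expression, normalized by the authors. The mean correlation of 1 array with the other 21 lay between 0.979 and 0.991, and the lowest belonged to FASD animal 2 at 5 months. In this animal the mean of 4 mural cell and fibroblast markers stood 1.02 above those probe sets' means over all animals. On the same scale it had 0.50 for 6 oligodendrocyte markers, 0.36 for 4 oligodendrocyte precursor markers and 0.35 for 7 microglial markers. Values below 0 were -0.41 for 2 choroid plexus markers, -0.29 for 3 endothelial markers and -0.18 for 5 neuronal markers. Astrocyte markers had 0.05 and immature neuron markers 0.04. Of the neuronal markers, SYT1 had 12.80 in its lowest animal, STMN2 12.22, NRGN 10.47, GAD1 10.05 and NEUROD6 9.07. Of the astrocyte markers, SLC1A3 had 11.82 in its lowest animal, S100B 10.17, ALDH1L1 7.52, and GFAP 11.60 or 7.14 by probe set. No blood marker had a probe set here. Control animal 6 at 5 months carries a source name that says 2 years, against its title, description and age. It was kept at 5 months, and values without it are given for the 2 calls that ended without it (CLDN4 at 5 months and PCDHB5 for the interaction). In bulk tissue, fewer cells of a type and less RNA per cell cannot be told apart.

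For the independent variable alcohol (FASD minus control, averaged over the 2 ages), no adhesion probe set passed an adjusted p of 0.05 by limma with Benjamini-Hochberg adjustment over all 11512 probe sets, and none passed by the two-way analysis of variance. At an unadjusted p under 0.05, 4 of 60 passed (6.67%), 2 higher and 2 lower in FASD animals, against 8.44% of all probe sets (2.43% higher and 6.01% lower). The analysis of variance also gave 4, the same probe sets. With arrays centred on their median, the split was 3 higher and 1 lower. The median alcohol difference was -0.0107 over the 60 and -0.0069 over all probe sets, and both signs depended on the scaling, with 0.0027 and 0.0064 when arrays were centred on their median. The differences lay between -0.27 (CDH9) and 0.20 (ITGAV). The 95% confidence interval of the alcohol difference lay within a 1.2-fold change either way for 30 of the 60 and within a 1.5-fold change for 59. The remaining probe set, PCDH20, had an interval of -0.61 to 0.11. Of the 4, those of lowest p were both cadherin superfamily members.

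**Figure D1:**
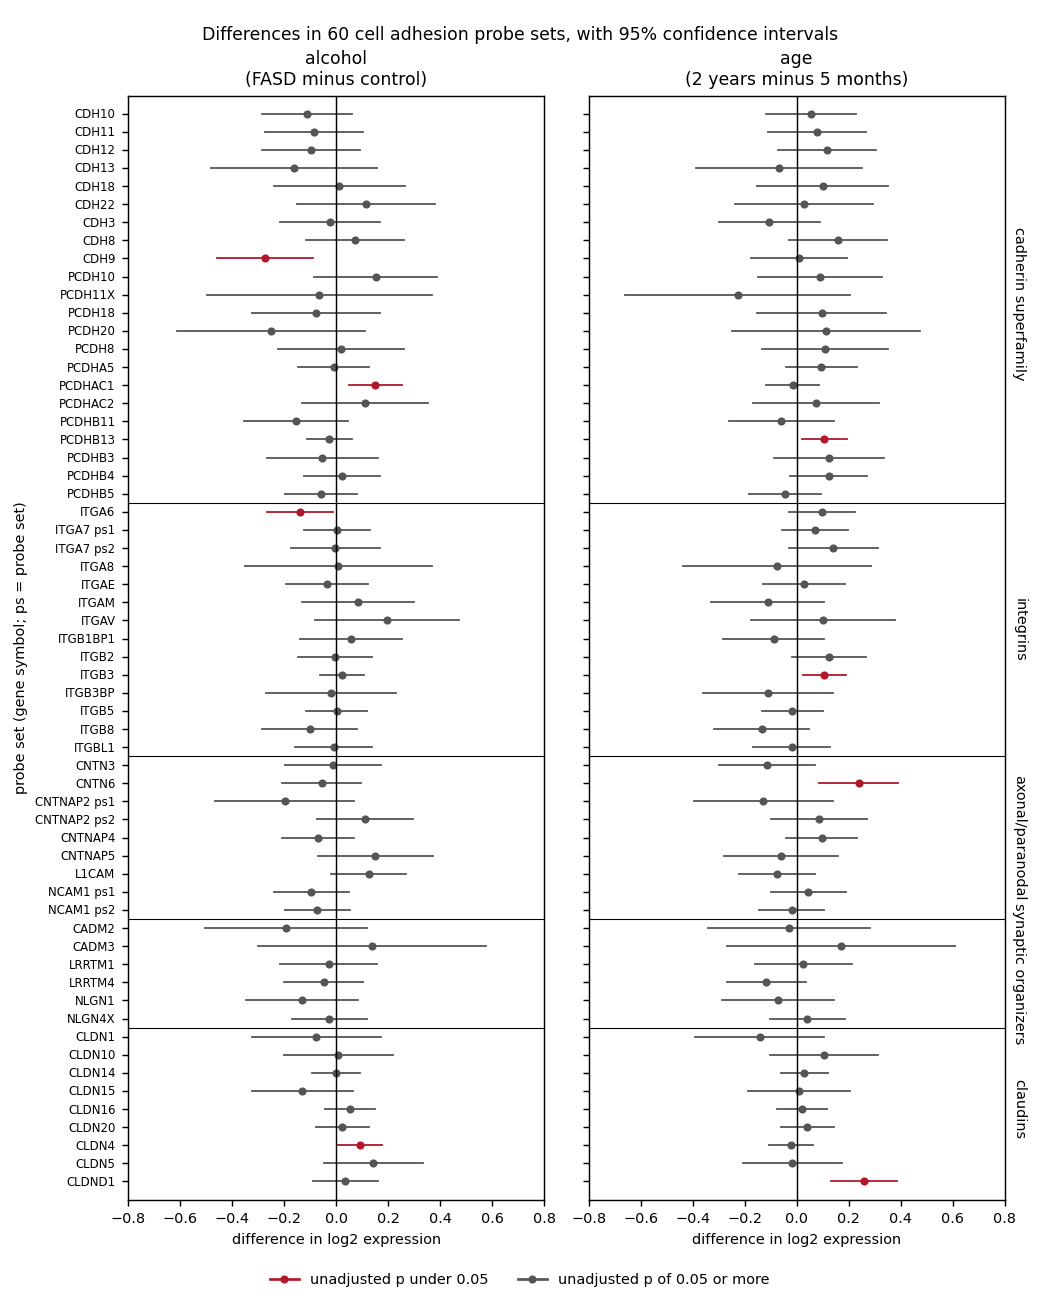
Difference in log2 expression for each of the 60 adhesion probe sets, for alcohol (left, FASD minus control) and age (right, 2 years minus 5 months), with 95% confidence intervals from limma and 22 animals. Probe sets with an unadjusted p under 0.05 are red, and there are 4 in each panel. No probe set of the 60 passed an adjusted p of 0.05.

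CDH9 is a classical cadherin of the second type, which in rodents takes part in forming the synapse between dentate granule cells and CA3 pyramidal cells. At 2 years, FASD animals had log2 values of 6.37, 6.23, 6.62, 6.63 and 6.66, against controls that ran from 6.40 through a median of 6.70 to 7.14. At 5 months, FASD animals had 6.09, 6.33, 6.74, 6.33 and 6.71, against controls from 6.65 through 6.74 to 7.01. Thus 3 of 5 FASD animals lay below all controls at 5 months and 2 of 5 did at 2 years, and the groups overlapped at both ages. The alcohol difference was -0.27 ± 0.09 (SE), a ratio of 0.827 (limma, p of 0.00571 unadjusted and 0.579 adjusted). An exact two-sided permutation of the animals within age gave p = 0.00802 over 213444 arrangements. Leaving out any 1 animal kept the difference between -0.31 and -0.23, and the highest unadjusted limma p was 0.0146.

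PCDHAC1 encodes a C-type isoform of the clustered protocadherin alpha genes, whose isoforms give neurons distinct surface identities. FASD animals at 2 years had 5.54, 5.37, 5.20, 5.32 and 5.35, against controls from 4.95 through a median of 5.19 to 5.31. At 5 months, the FASD values were 5.40, 5.42, 5.26, 5.19 and 5.36, against controls from 5.15 through 5.23 to 5.30. In FASD animals, 4 of 5 at 2 years and 3 of 5 at 5 months lay above all controls of their age. The alcohol difference was 0.15 ± 0.05 (SE), a ratio of 1.11, with a limma p of 0.0053 (0.579 adjusted) and p = 0.00213 by exact permutation within age. It stayed between 0.13 and 0.17 without any 1 animal. PCDHAC1, like CDH9, had a mean log2 below 7, so neither was tested in the alternative that kept means of at least 7. The other C-type member, PCDHAC2, had a difference of 0.11 (unadjusted p of 0.355), and PCDHA5 had -0.01, a value that was above 0 with arrays centred on the median.

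ITGA6 is the alpha subunit of laminin receptors. At 2 years its values in FASD animals were 7.25, 7.60, 7.43, 7.19 and 7.36, against 7.32 to 7.58 in controls with a median of 7.42. At 5 months they were 7.34, 6.86, 7.36, 7.21 and 7.22 in FASD animals, against 7.28 to 7.54 in controls, again with a median of 7.42. At 5 months, 3 of 5 FASD animals lay below all controls, and FASD animal 3 was the lowest of all 22. The alcohol difference was -0.14 ± 0.06 (SE; unadjusted p of 0.0322, adjusted p of 0.58 by limma, exact permutation p = 0.0282). It no longer passed an unadjusted 0.05 with arrays centred on the median, with quantile normalization, or without any one of 5 animals (FASD animals 1 and 4 and control 4 at 2 years, FASD 3 and control 1 at 5 months), where the value nearest 0 was -0.10 and the highest p 0.084. Of the other integrin subunits, ITGAV, the alpha subunit of vitronectin and osteopontin receptors, had the widest alcohol difference, at 0.20 ± 0.13 (SE; p of 0.16), with 7.49 to 8.65 in FASD animals and 7.51 to 8.29 in controls at 2 years. The subunits ITGA8, ITGB2 and ITGB5 and both ITGA7 probe sets differed by less than 0.01.

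CLDN4 is an epithelial tight junction claudin. The FASD animals had 7.14, 7.22, 7.01, 7.11 and 7.10 at 2 years, against 6.98 to 7.11 in controls with a median of 7.06. At 5 months the FASD values were 7.34, 7.24, 7.12, 7.08 and 7.08, against 6.96 to 7.17 with a median of 7.05. All 5 FASD animals at 5 months lay above 5 of the 6 controls, but the whole difference was 0.09 ± 0.04 (SE; unadjusted p of 0.0363, adjusted p of 0.585 by limma, exact permutation p = 0.0104). It no longer passed with array weights, with the replicate number as a block (p of 0.0557) or without any one of 7 animals (FASD animals 1 and 2 and control 4 at 2 years, FASD 2 and 3 and control 1 and 3 at 5 months), with values of 0.07 to 0.10 and a highest p of 0.0803. The next claudin by p was CLDN5, the main claudin of brain endothelium, at 0.14 ± 0.09 (SE; p of 0.13). CLDN20 differed by 0.02, and CLDN10 and CLDN14 by less.

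**Figure D2:**
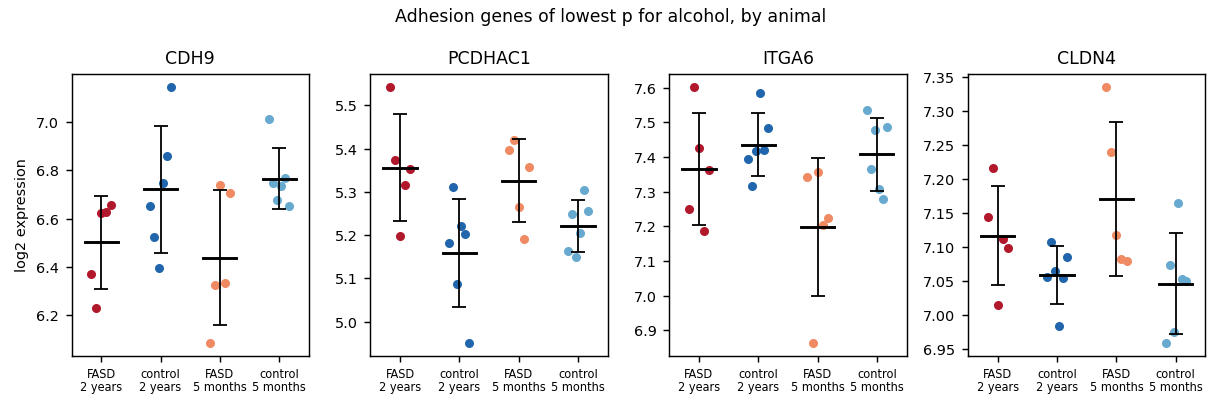
Log2 expression of the 4 adhesion genes with an unadjusted p under 0.05 for alcohol, 1 point per animal, with group mean and SD (n = 5 FASD and 6 control animals at each age). CDH9 and ITGA6 had lower means and PCDHAC1 and CLDN4 higher means in FASD animals at both ages, and the groups overlapped in every panel.

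No axonal or paranodal probe set passed an unadjusted 0.05 for alcohol. L1CAM, an axon growth molecule whose adhesion is inhibited by ethanol in cultured cells, had the lowest p in the class. Its values were 10.57, 10.79, 10.62, 10.54 and 10.39 in FASD animals at 2 years, against 10.19 to 10.85 in controls. At 5 months they were 10.50, 10.64, 10.75, 10.78 and 10.62 in FASD animals, against 10.41 to 10.68 in controls (median 10.53). The difference was 0.12 with a 95% confidence interval of -0.02 to 0.27 (limma, p of 0.0894; exact permutation p = 0.0904). It passed an unadjusted 0.05 with arrays centred on the median, with quantile normalization and with array weights, and at no setting an adjusted one. The 2 probe sets of NCAM1, the neural cell adhesion molecule, had -0.10 and -0.07, both in the opposite direction to L1CAM and neither past an unadjusted 0.05.

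CNTNAP2, which gathers potassium channels beside the nodes of Ranvier, was read by 2 probe sets that gave opposite signs for alcohol, -0.20 ± 0.13 and 0.11 ± 0.09 (SE; p of 0.137 and 0.23). The first had 7.87 to 9.07 in FASD animals and 8.11 to 9.07 in controls at 2 years, and 8.41 to 8.95 in FASD animals against 8.77 to 8.95 in controls at 5 months. In the second, control animal 6 at 2 years had 7.89 while the next control had 8.57. The 2 readings also differed in sign for age, at -0.13 and 0.09, so no direction is given for this gene. CNTNAP4, a relative of CNTNAP2, differed by -0.07 for alcohol, and CNTNAP5 by 0.15 with an interval of -0.07 to 0.37.

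Among the synaptic organizers, 5 of 6 had alcohol differences below 0, against 53.2% of all probe sets, and none passed an unadjusted 0.05. CADM2, a nectin-like adhesion protein of axons and synapses, had 9.24, 8.45, 9.20, 9.27 and 9.25 in FASD animals at 2 years, against 8.58 to 9.90 in controls (median 9.61). Of those controls, 5 of 6 lay above every FASD animal, and control animal 2 lay at the low end with 8.58. At 5 months the FASD values were 8.91, 9.33, 9.17, 9.17 and 9.90, against 8.97 to 9.82 (median 9.27). The difference was -0.19 ± 0.15 over both ages (SE; p of 0.212). NLGN1, the neuroligin of excitatory synapses, had -0.13 ± 0.10 (SE; p of 0.219), with its lowest values, 8.41 and 8.43, in FASD animal 2 at 2 years and FASD animal 2 at 5 months. NLGN4X, the X-linked neuroligin, had -0.03 with a 95% interval of -0.17 to 0.12, and lay above 0 with quantile normalization.

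Within each age the shares of adhesion probe sets, 6.67% at 2 years and 5% at 5 months, were close to those of all probe sets. At 2 years, 4 of 60 passed an unadjusted 0.05 for alcohol, 2 higher and 2 lower in FASD animals (background 6.05%, with 2.69% higher and 3.35% lower), and 3 passed by the analysis of variance. At 5 months, 3 of 60 passed, 1 higher and 2 lower (background 4.83%, with 1.47% higher and 3.36% lower), and 3 by the analysis of variance, with 2 higher and 1 lower when arrays were centred on their median. None passed after adjustment at either age by either tool. The shares of all probe sets rested on single animals too. Without control animal 2 at 2 years they were 14.5% for alcohol at 2 years and 14.6% for alcohol over both ages, and without control animal 6 at 2 years 3.43% passed at that age. At 5 months they were 3.17% without FASD animal 2 and 7.29% without FASD animal 4. The 3 at 5 months were CDH9 at -0.33 (p of 0.0168), ITGA6 at -0.21 (p of 0.0244) and CLDN4 at 0.13 (p of 0.0427). Without FASD animal 2 at 5 months, CDH9 was at -0.24 (p of 0.0713) and CLDN4 at 0.08 (p of 0.152), and without FASD animal 3 at 5 months the difference of ITGA6 was -0.13 (p of 0.127). CLDN4 also did not pass at 5 months without any one of FASD animal 3 and control 1, 3, 5 and 6, with array weights (p of 0.0785) or with the replicate block (p of 0.06). Without control animal 6, whose labels conflict, its value was 0.13 (p of 0.0562). ITGA6 also did not pass without control animal 1 (p of 0.0551), with arrays centred on the median (p of 0.0686) or with quantile normalization (p of 0.0624). Oligodendrocyte markers were higher in FASD animals at this age, with 4 of 6 probe sets past an unadjusted 0.05 and list means of 0.04 to 0.50 in FASD animals, against -0.21 to 0.03 in controls. The means of 4 oligodendrocyte precursor markers (CSPG4, GPR17, SOX10 and OLIG2) were 0.13 to 0.36 in FASD animals and -0.18 to 0.04 in controls at 5 months. PDGFRA, OLIG1 and PTPRZ1 of this list had no probe set here. The part of either list in the adhesion values was not tested.

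The 4 at 2 years were PCDHAC1 at 0.20 (p of 0.00914), CLDN5 at 0.31 (p of 0.0275), PCDHB11 at -0.31 (p of 0.0351) and PCDHB5 at -0.21 (p of 0.036). CLDN5 had 8.93, 8.69, 8.55, 9.05 and 8.87 in FASD animals at 2 years, against 8.14 to 8.77 in controls with a median of 8.56. Here 3 of 5 FASD animals lay above all controls and 3 of 6 controls lay below all FASD animals. At 5 months it had 8.60, 8.95, 8.53, 8.72 and 8.57 in FASD animals, against 8.28 to 9.09 with a median of 8.69, a difference of -0.02 that was above 0 with arrays centred on the median (0.02). The mean of 3 other endothelial markers (PECAM1, TIE1 and TEK) was 0.11 ± 0.09 in FASD animals and -0.04 ± 0.17 in controls at 2 years (SD), and 1 of the 3 passed an unadjusted 0.05 there. The part of these markers in the CLDN5 value was not tested within this age. Without any one of FASD animals 1 and 4 and control 5 and 6 at 2 years, CLDN5 no longer passed, and its p ran up to 0.0843. With the replicate block it was 0.27 (p of 0.0563).

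PCDHB11, a clustered protocadherin of the beta genes, had 5.43, 5.04, 5.48, 5.03 and 5.29 in FASD animals at 2 years, against 5.29 to 6.04 in controls with a median of 5.43. Its 2 highest controls had values of 6.04 and 5.79, and without control animal 4, which had 6.04, the difference was -0.21 (p of 0.112). It also failed an unadjusted 0.05 by the two-way analysis of variance (p of 0.0501), with array weights (p of 0.053) and without any one of FASD 2, FASD 4 and control 6 at 2 years. At 5 months the FASD and control means were 5.47 ± 0.29 and 5.47 ± 0.15 (SD, n = 5 and 6). PCDHB5 at 2 years no longer passed with the replicate block (p of 0.0636) or without any one of FASD animals 1, 2 and 3 and control 3, 5 and 6, and its value nearest 0 was -0.14 (p of 0.117), without control animal 3.

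For the independent variable age (2 years minus 5 months), 4 of 60 adhesion probe sets passed an unadjusted 0.05, all 4 higher at 2 years, against 9.57% of all probe sets (4.68% higher and 4.89% lower). None passed after adjustment by limma or by the analysis of variance, while 0.139% of all probe sets did by limma. The median age difference was 0.03 over the 60 and 0.00 over all probe sets. In the cadherin superfamily the median age difference was 0.08, beside 0.00 over all probe sets. There 1 of the 22 passed, against 9.57% of all probe sets. The 4 were a claudin-like protein, a contactin, an integrin subunit and a protocadherin. The count was 8 without FASD animal 2 at 2 years, with 10.5% of all probe sets passing. It was 7 without FASD animal 6 at 5 months, with 9.89% of all. CDH8 and PCDHB4 joined both times, and the first 4 passed without any 1 animal.

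CLDND1, a membrane protein related to the claudins, had the lowest p of the 60 for age. In FASD animals it had 10.87, 10.70, 10.53, 10.80 and 10.68 at 2 years and 10.62, 10.46, 10.49, 10.62 and 10.46 at 5 months. In controls it ran from 10.48 through a median of 10.77 to 11.01 at 2 years and from 10.23 through 10.43 to 10.58 at 5 months. In FASD animals 4 of 5, and in controls 5 of 6, lay at 2 years above every animal of the same exposure at 5 months. The age difference was 0.26 ± 0.06 (SE), a ratio of 1.2, with a limma p of 0.000293 (0.0931 adjusted) and an exact permutation p of 0.000335 over 232848 arrangements within exposure. Without control animal 5 at 2 years the adjusted p was 0.0377, and it lay above 0.05 at all other settings run. Within exposure it was 0.19 in FASD animals and 0.33 in controls, and the interaction did not pass (p of 0.248).

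CNTN6 is a contactin, a membrane-anchored immunoglobulin molecule of neurons. FASD animals had 6.33, 6.36, 6.61, 6.61 and 6.75 at 2 years and 5.99, 6.09, 6.45, 6.17 and 6.45 at 5 months. Controls ran from 6.29 through a median of 6.59 to 6.68 at 2 years and from 6.17 through 6.34 to 6.57 at 5 months. The values overlapped in both exposures, with 3 of 5 FASD animals and 4 of 6 controls at 2 years above all their 5-month counterparts. The age difference was 0.24 ± 0.07 (SE), a ratio of 1.18 (unadjusted p of 0.00371, adjusted p of 0.245 by limma, exact permutation p = 0.00698). The other contactin, CNTN3, had -0.12 (p of 0.21), with 6.42 ± 0.26 at 2 years and 6.70 ± 0.23 at 5 months in controls (SD, n = 6 each).

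ITGB3 is a beta subunit that pairs with ITGAV. It had 6.20, 6.20, 6.21, 6.14 and 6.29 in FASD animals at 2 years and 6.17, 6.20, 6.22, 6.17 and 6.09 at 5 months. In controls it ran from 6.09 through 6.27 to 6.35 at 2 years and from 5.95 through 6.08 to 6.21 at 5 months. The age difference of 0.11 ± 0.04 (SE; unadjusted p of 0.0147, adjusted p of 0.37 by limma, exact permutation p = 0.00454) was 0.18 within controls, where 5 of 6 animals at 2 years lay above all at 5 months. The difference between the exposures was -0.14 and did not pass by limma (p of 0.0983). It passed an unadjusted 0.05 by the two-way analysis of variance (p of 0.0431), with arrays centred on the median (p of 0.0456) and without control animal 1 at 2 years (p of 0.0364), with an adjusted p of 0.998 to 1 in these 3.

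PCDHB13, a beta protocadherin, had 6.78, 6.68, 6.78, 6.65 and 6.61 in FASD animals at 2 years and 6.65, 6.77, 6.55, 6.56 and 6.43 at 5 months. Controls ran from 6.65 through 6.73 to 6.78 at 2 years and from 6.54 through 6.63 to 6.68 at 5 months, so that 5 of 6 controls at 2 years lay above all at 5 months. The age difference was 0.11 ± 0.04 (SE; unadjusted p of 0.0182, adjusted p of 0.388 by limma, exact permutation p = 0.00689). The markers of immature neurons were lower at 2 years, with 3 of 5 probe sets past an unadjusted 0.05 and list means of -0.35 to 0.34 in FASD animals at 2 years and 0.04 to 0.26 at 5 months, and of -0.30 to -0.13 in controls at 2 years and -0.0016 to 0.34 at 5 months. Their part in the age values of adhesion genes was not tested.

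**Figure D3:**
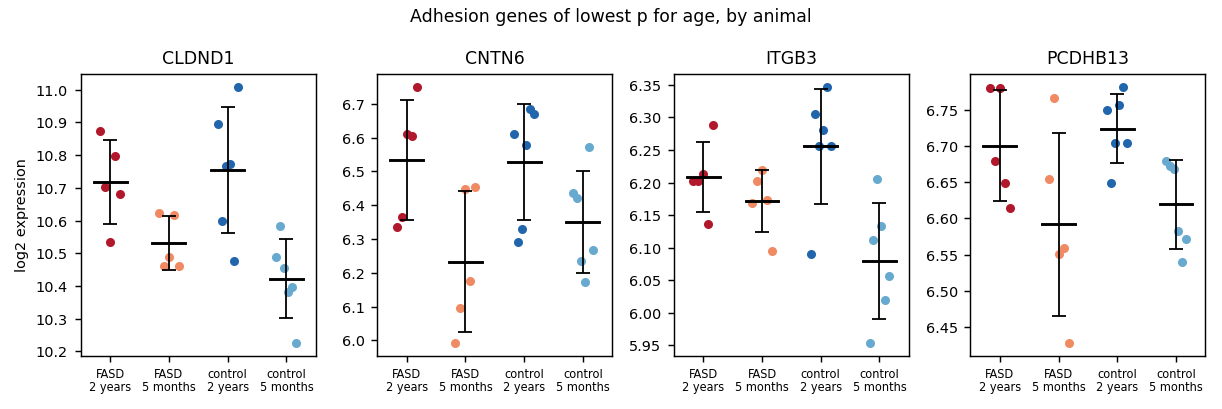
Log2 expression of the 4 adhesion genes with an unadjusted p under 0.05 for age, 1 point per animal, with group mean and SD (n = 5 in each FASD group and 6 in each control group). In each panel the mean at 2 years was above the mean at 5 months in FASD animals and in controls, and single animals overlapped.

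Other members with low p for age in their class did not pass. CDH8, a classical cadherin of the second type, had 0.16 ± 0.09 (SE; p of 0.095), with 8.47 ± 0.30 at 2 years and 8.20 ± 0.27 at 5 months in FASD animals, and 8.29 ± 0.17 at 2 years and 8.24 ± 0.15 at 5 months in controls (SD). ITGB2, the beta subunit of leukocyte and microglial integrins, had 0.12 ± 0.07 (SE; p of 0.0844), and within FASD animals it averaged 6.34 ± 0.17 at 2 years and 6.11 ± 0.21 at 5 months (SD). Its partner ITGAM had -0.11 with an interval of -0.33 to 0.11, so the 2 subunits of complement receptor 3 differed in sign. CNTNAP4 had 0.10 (p of 0.164), LRRTM4, a postsynaptic leucine-rich protein, -0.12 (p of 0.122), and CADM3, a nectin-like relative of CADM2, 0.17 with an interval of -0.27 to 0.61. CLDN1, an epithelial claudin, had -0.14 (p of 0.248), and its highest value of all 22 animals was 5.58 in control animal 6 at 5 months, the animal of conflicting labels, while the next control of its group had 4.65. The second highest was 5.23 in FASD animal 3 at 5 months, and CDH3, or P-cadherin, was highest in the same 2 animals, at 6.76 in this FASD animal and 6.92 in the control. The mean of 2 choroid plexus markers (AQP1 and FOLR1) was also highest in them, at 0.63 in the FASD animal and 1.01 in the control, and its part in these values was not tested.

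For the interaction of alcohol and age (the FASD minus control difference at 2 years, less that at 5 months), 2 of 60 probe sets passed an unadjusted 0.05, both with a negative interaction, against 3% of all probe sets (0.886% negative and 2.11% positive). None passed after adjustment by limma or by the analysis of variance, which gave 3 at an unadjusted 0.05, the third being ITGB3. ITGAE, the alpha subunit of an integrin known from T cells in epithelia that binds E-cadherin, had 9.70, 9.87, 9.77, 9.74 and 9.64 in FASD animals at 2 years, against 9.61 to 10.14 in controls (median 9.99). At 5 months it had 10.14, 10.03, 9.45, 9.84 and 10.02 in FASD animals, against 9.54 to 9.97 in controls (median 9.78). At 2 years 5 of 6 controls lay above all FASD animals, while at 5 months 3 of 5 FASD animals lay above all controls and 1 below all. The alcohol difference was -0.21 at 2 years and 0.14 at 5 months, and the interaction was -0.36 ± 0.15 (SE; unadjusted p of 0.0286, adjusted p of 1 by limma). It failed an unadjusted 0.05 without any one of 6 animals (FASD 6 and control 1 at 2 years, FASD 2, 3 and 6 and control 3 at 5 months), with values of -0.47 to -0.29 over all 22 omissions.

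PCDHB5, a beta protocadherin, had 6.09, 6.09, 5.92, 6.24 and 6.11 in FASD animals at 2 years, against 6.01 to 6.64 in controls (median 6.23). At 5 months it had 6.12, 6.32, 6.32, 6.40 and 6.28 in FASD animals, against 6.02 to 6.26 in controls (median 6.24). At 5 months 4 of 5 FASD animals lay above all controls, and at 2 years 3 of 6 controls lay above all FASD animals. The alcohol difference was -0.21 at 2 years and 0.10 at 5 months, and the interaction was -0.31 ± 0.13 (SE; unadjusted p of 0.0309, adjusted p of 1 by limma). Without control animal 6 at 5 months, whose labels conflict, it was -0.27 (p of 0.056), with the replicate block it was -0.30 (p of 0.06), and neither passed an unadjusted 0.05. Nor did it pass without any one of 4 others (FASD 3 and control 3 and 6 at 2 years, FASD 5 at 5 months), with values of -0.37 to -0.24 over all 22 omissions.

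**Figure D4:**
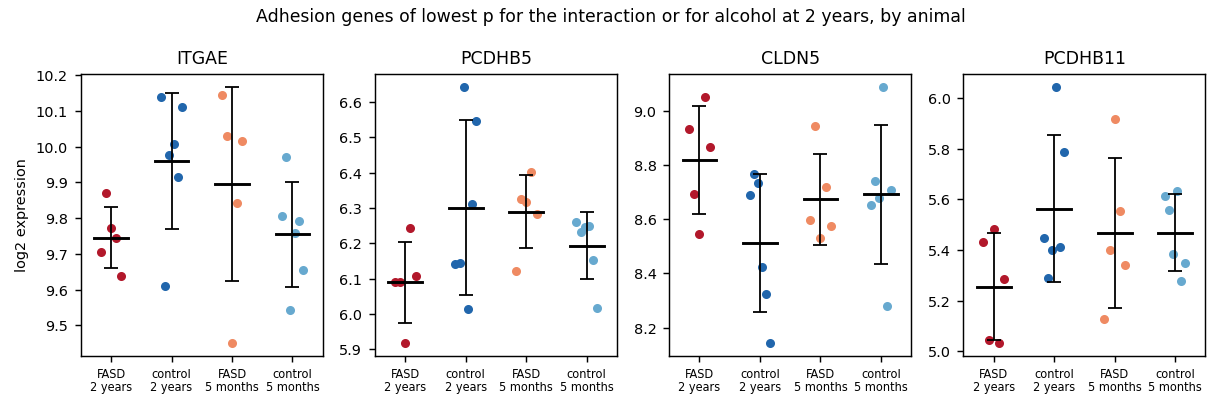
Log2 expression of ITGAE and PCDHB5, which had an unadjusted p under 0.05 for the interaction, and of CLDN5 and PCDHB11, which had one for alcohol at 2 years, 1 point per animal with group mean and SD. The FASD means of ITGAE and PCDHB5 lay below control at 2 years and above it at 5 months, and those of CLDN5 and PCDHB11 were close to control at 5 months.

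Several adhesion probe sets varied widely between animals of 1 group. The median SD within groups was 0.22 over the 60 and 0.16 over all 11512, and the widest were CADM3 at 0.55, PCDH11X, an X-linked protocadherin, at 0.54, PCDH20 at 0.45, ITGA8, the alpha subunit of a receptor for RGD-bearing matrix proteins, at 0.45, and CDH13, a cadherin anchored to the membrane by a lipid, at 0.40. CADM3 ran from 8.05 to 9.87 within controls at 5 months and from 8.35 to 9.95 within FASD animals at 2 years. Its interaction was 0.69, the widest of the 60, and did not pass (limma, p of 0.119).

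Single animals held many of these extremes. FASD animal 2 at 2 years was the highest or the lowest of the 22 in 25% of the 60 probe sets (17.2% of all probe sets), FASD animal 1 at 2 years in 20% (9.16% of all), and control animal 6 at 2 years in 18.3% (17.3% of all). FASD animal 2 at 5 months was so in 23.3%, a smaller share than its 29.3% of all probe sets. In PCDH20 FASD animal 2 of each age had the lowest values, 9.10 and 8.81, against a next lowest of 9.54 in control animal 2 at 2 years. In CDH22, a cadherin of brain, the same 2 animals had the highest, 8.35 and 8.13, against 7.67 in control animal 2 at 2 years. PCDH10, a protocadherin, was likewise highest in FASD animal 2 at 2 years, at 9.19. CDH13 was also highest in this animal, at 8.58, followed by 8.48 in control animal 4 and 8.44 in FASD animal 2 at 5 months. PCDH11X had 8.74 in FASD animal 2 at 5 months and 7.91 or less in all others, while ITGA8 had 6.04 there and 6.80 or more elsewhere. Relative to all 22, the 5 neuronal markers averaged -0.19 in FASD animal 2 at 2 years and -0.18 in FASD animal 2 at 5 months. They were lower still, at -0.23, in control animal 6 at 2 years. The part of tissue makeup in these values was not tested. Without FASD animal 2 at 2 years the alcohol count stayed at 4, of which 3 were the same, and without FASD animal 2 at 5 months it was also 4, of which 3 were the same.

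**Figure D5:**
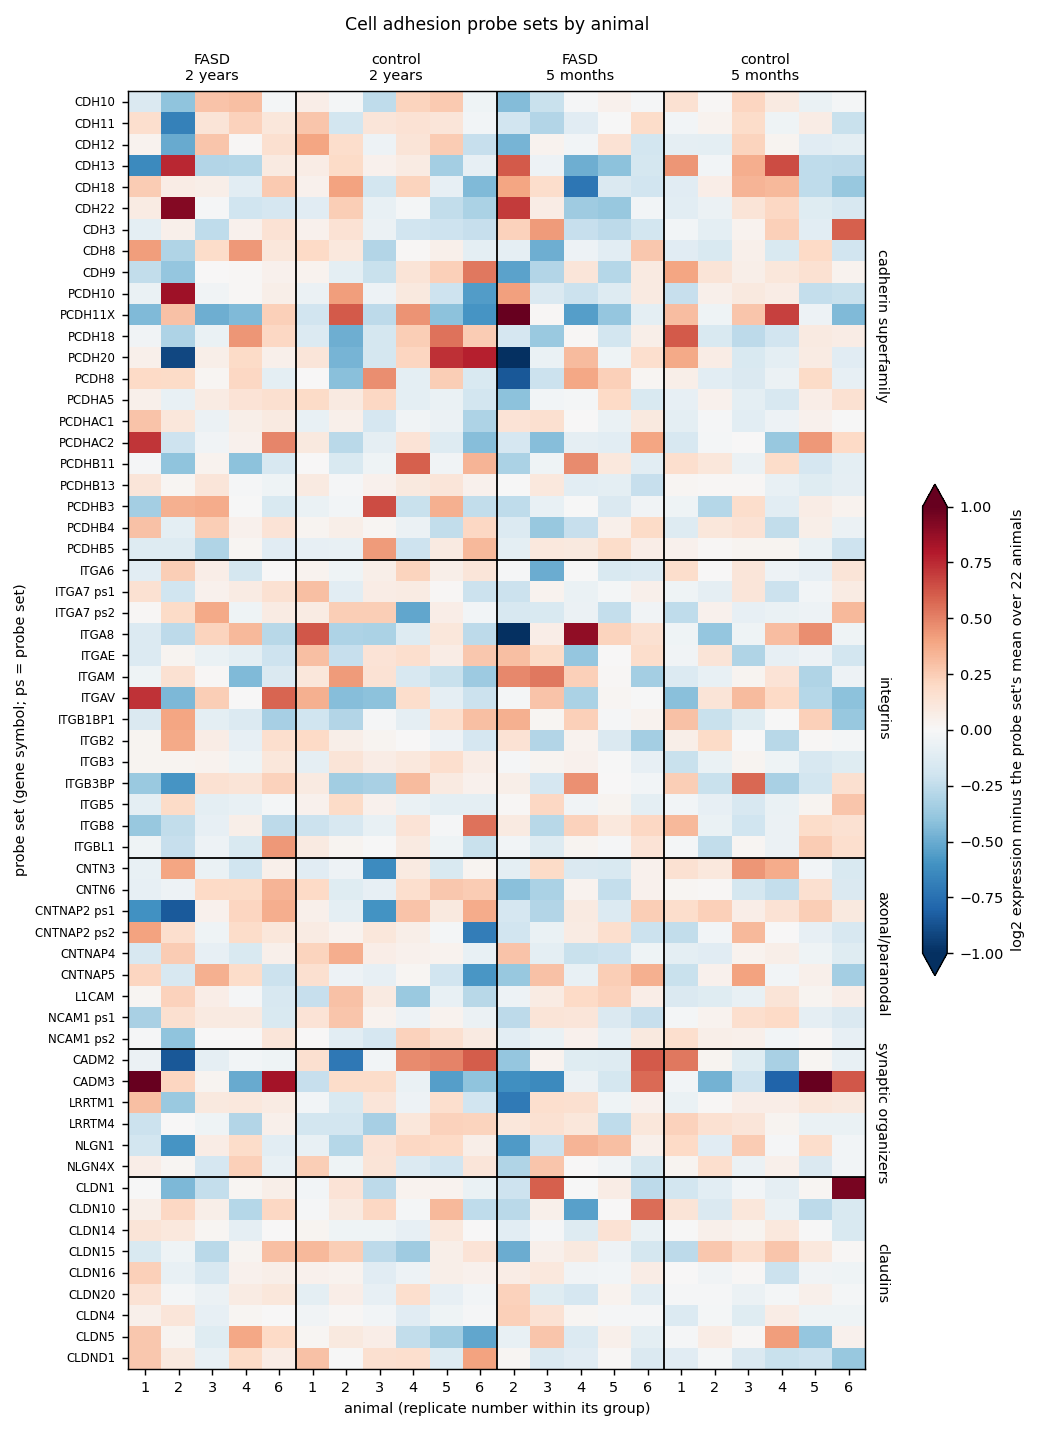
Log2 expression of the 60 adhesion probe sets in each of 22 animals, as the difference from the probe set's mean over all animals (colour scale from -1 to 1, values beyond it at the end colours). Columns are animals by group and rows are probe sets by class. Among the darkest cells are those of FASD animal 2 at 5 months (PCDH11X, PCDH20, ITGA8) and FASD animal 2 at 2 years (CDH22, PCDH10, PCDH20), and of CADM3 in several groups.

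Adhesion genes known to mark a cell type were set against other markers of that type, using each animal's deviation from its group mean over 22 animals and 4 pairs. CLDN5 and the 3 endothelial markers gave Pearson's r = 0.463 (permutation p = 0.0381, adjusted p = 0.152) and Spearman's rho = 0.444 (p = 0.0602, adjusted p = 0.12), and r was 0.421 without the 2 animals farthest out in the markers. ITGB2 and 7 microglial markers gave r = 0.442 (permutation p = 0.0841, adjusted p = 0.168) and rho = 0.468 (p = 0.0567, adjusted p = 0.12), with r = 0.26 without the 2 farthest. ITGAM and the same markers gave r = 0.272 (permutation p = 0.305, adjusted p = 0.407) and rho = 0.197 (p = 0.422, adjusted p = 0.45), with r = 0.241 without the 2 farthest. CDH11, a cadherin of mesenchymal cells and neurons, and 4 mural cell and fibroblast markers gave r = -0.118 (permutation p = 0.607, adjusted p = 0.607) and rho = -0.173 (p = 0.45, adjusted p = 0.45), with r = -0.145 without the 2 farthest. No pair passed after adjustment over the 4.

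The intracellular partners and ligands of these molecules were read from 3 lists. Of 13 probe sets for catenins and junction scaffolds, 3 passed an unadjusted 0.05 for alcohol (8.44% of all probe sets did): AFDN, the afadin that ties nectins to actin, at -0.19 (p of 0.00417), JUP, or plakoglobin, at 0.10 (p of 0.0289), and CTNND1, the p120 catenin that steadies cadherins at the membrane, at -0.10 (p of 0.047). For age 2 passed (9.57% of all), CTNND1 at -0.13 and the junction molecule F11R at 0.15, and for the interaction 2 passed (3% of all), F11R at 0.35 and the plakophilin PKP4 at -0.25. At 5 months 4 passed for alcohol (4.83% of all), PKP4 at 0.21, AFDN at -0.23, CTNND1 at -0.17 and F11R at -0.21, and at 2 years 1 passed (6.05% of all), the alpha catenin CTNNA1 at -0.16. None passed after adjustment, with adjusted p of 0.387 to 1. The median alcohol difference of the list was -0.05.

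Of 17 probe sets for integrin ligands and adaptors, 3 passed for alcohol, all lower in FASD animals, where 8.44% of all probe sets passed and 6.01% were lower: FERMT2, a kindlin that activates integrins, at -0.19 (p of 0.0121), the laminin chain LAMA1 at -0.22 (p of 0.0151), and tenascin-C, TNC, at -0.29 (p of 0.0317). None had an adjusted p under 0.05, and the list's median was 0.03. FERMT2 had -0.31 at 2 years and TNC had -0.37 at 5 months. For age 3 passed, against 9.57% of all. SPP1, or osteopontin, a ligand of ITGAV-containing integrins, rose at 2 years by 0.62 ± 0.10 (SE; adjusted p of 0.011 by limma), THBS1, a thrombospondin, had -0.55 (adjusted p of 0.263) and PTK2, the focal adhesion kinase, had 0.14 (adjusted p of 0.29).

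Of 25 probe sets for synaptic scaffolds and other trans-synaptic ligands, 2 passed an unadjusted 0.05 for alcohol, which is 8% beside 8.44% of all probe sets. They were gephyrin (GPHN) at -0.10 (p of 0.0418) and SHANK2, a scaffold of excitatory synapses, at -0.13 (p of 0.044). For age 1 passed (9.57% of all), EPB41L3, which ties CADM proteins and contactin-associated proteins to the membrane skeleton, at 0.12 (p of 0.0303), and the same gene had -0.17 for alcohol at 2 years (p of 0.0339). None passed after adjustment. The median alcohol difference of the list was -0.01.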

How the data were processed

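Total RNA of the hippocampus was hybridized by the authors to rhesus macaque arrays. The deposited values are log2 expression, computed by the authors with RMA (background correction, quantile normalization across arrays, probe summary), so a shift shared by all genes would be removed. Per the study's methods, probe sets were kept if annotated, detected in several arrays and of highest mean per gene. The table held 11512 rows, and the columns of 2 discarded arrays were empty. No sources used here state the version of RMA.

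Members were found by symbol in the platform annotation, which gives 8730 rows 1 symbol and 2694 rows none. The authors also used a private annotation, and to them each row was a different gene. Members without a symbol here may therefore be missed. Rows that share a symbol here, such as those of CNTNAP2, may have been different genes to the authors. Group means were fitted to all 11512 rows with limma 3.58.1 in R 4.3.3, with empirical Bayes moderation and Benjamini-Hochberg adjustment. The steps were tested on simulated data. Exact permutations and marker correlations (100000 permutations within groups) used scipy 1.17.1 in Python 3.11.15, and figures matplotlib 3.10.9. The number of arrays limits the precision. Each animal is 1 array, so p-values set a difference against the spread between animals within groups. They treat the animals as independent, though animals of different groups may share a mother.

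Genes named are members with an unadjusted p under 0.05 for alcohol, age or interaction, the 2 lowest p per class for alcohol and age, the marker pairs, and partner genes under 0.05 (at most 4 of lowest p per list and contrast). Others were chosen after their values were seen, for their spread or as relatives. The members and lists were chosen with earlier results of these data known. Of 7 marker pairs planned, 4 had a member probe set here. Alternatives were the two-way analysis of variance, trend with robust variances, array weights, median centring, quantile normalization, 1 row per symbol, a mean log2 of at least 7, a replicate block and each animal left out.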

Additional observations from a re-analysis of the deposited data

Results flagged for a closer look

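In 25 named probe sets and 4 groups, 100 sets of 5 or 6 animals were checked for 1 animal far from the rest of its group, and 7 were found. Chance flags about 1 in 20 groups, which is 5 of 100. FASD animal 2 at 2 years was far below its group in CADM2 (8.45, next 9.20) and in CDH11 (8.18, next 8.97). Control animal 6 at 5 months, whose labels conflict, was far above its group in CLDN1 (5.58, next 4.65). Control animal 1 at 5 months was above its group in CDH9 (7.01, next 6.77). Control animal 6 at 2 years was below its group in the second CNTNAP2 probe set (7.89, next 8.57), and control animal 1 at 2 years was below it in ITGB3 (6.09, next 6.26). FASD animal 5 at 5 months was below its group in LRRTM4 (4.81, next 5.17).

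The alcohol difference was unlike at the 2 ages, by the interaction term at an unadjusted p under 0.05, in ITGAE (-0.36, p of 0.0286) and PCDHB5 (-0.31, p of 0.0309). Both had an adjusted p of 1 by limma.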

How the results depend on the processing

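Counts are of the 60 adhesion probe sets past an unadjusted p under 0.05 by limma. A mean log2 of at least 7 kept 39 of them. The counts were then 2 for alcohol, 1 for age, 1 for the interaction and 1 for alcohol at 2 years. The calls lost were of probe sets with a mean below 7. These were PCDHAC1 and CDH9 for alcohol, and PCDHB13, ITGB3 and CNTN6 for age. PCDHB5 was lost for the interaction, CDH9 for alcohol at 5 months, and PCDHB5, PCDHAC1 and PCDHB11 for alcohol at 2 years. With array weights the counts were 5 for the interaction and 5 for alcohol at 5 months. The shares of all probe sets also rose, from 3% to 6.29% for the interaction and from 4.83% to 10.1% at 5 months. The cause was not tested. Leaving out single animals gave 2 to 6 for alcohol, 4 to 8 for age and 1 to 4 for the interaction. For alcohol it gave 1 to 4 at 5 months and 1 to 7 at 2 years. The shares of all probe sets then ran from 5.99% to 14.6%, 7.93% to 12.4% and 2.2% to 6.56% for the first 3. They ran from 3.17% to 7.29% at 5 months and from 3.43% to 14.5% at 2 years. After adjustment the count was 0 throughout, except 1 for age (CLDND1, difference 0.29, adjusted p of 0.0377) without control animal 5 at 2 years, so the range there was 0 to 1. Of the other alternatives, none moved a count by more than 1.5 times. None reversed a difference past an unadjusted 0.05 for alcohol, age or interaction. Of those near 0, median centring turned 6 of 60 for alcohol, 13 at 5 months, 3 at 2 years and 7 for the interaction, among them CLDN5 at 5 months and PCDHA5. Whether replicate numbers pair the animals was not tested. Same-numbered animals of different groups had a mean correlation of deviations of 0.07, from -0.33 to 0.39 over 30 pairs. Differently numbered animals had -0.01, from -0.51 to 0.43 over 151 pairs. With the replicate number as a block the counts were 3 for alcohol, 4 for age, 2 for the interaction, 3 at 5 months and 3 at 2 years. The block ended the calls of CLDN4 (alcohol and 5 months), PCDHB5 (interaction and 2 years) and CLDN5 (2 years). The median SE of the 60 was 0.09 for alcohol, and how well vervet transcripts bind the macaque probes is unknown.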
